A study of Mus musculus with 2 samples.

Results

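The 7 genes described here encode the core protein of the elastic fibre and the microfibrils around it: *Eln* (elastin), *Fbn1* (fibrillin-1), *Mfap2* and *Mfap5* (the microfibril glycoproteins MAGP-1 and MAGP-2), *Mfap4* (microfibril-associated protein 4), *Fbln1* (fibulin-1) and *Fbln5* (fibulin-5). They were taken by symbol from the 19465 genes of the deposited matrix, and each symbol matched 1 row. The study measured spatial transcriptomics with the Visium CytAssist method, in which pairs of probes read the RNA of fixed tissue and each read is assigned to a spot on an array. There were 2 skin sections of 10 µm, 1 from each genotype, and so 1 section per genotype. The first came from an S1pr2fl/fl mouse, which carries floxed alleles of the sphingosine 1-phosphate receptor gene *S1pr2* and no Cre. The second carried K14-Cre in addition (S1pr2fl/fl K14-Cre). There, the keratin 14 promoter drives Cre in keratinocytes, so that cells that never express keratin 14, fibroblasts among them, keep the floxed gene. Both mice were 8 weeks old, had their backs depilated 1 day before treatment and received 62.5 mg of 5% imiquimod (IMQ) cream daily for 7 days. IMQ is an agonist of Toll-like receptor 7 that brings on psoriasis-like inflammation, and no section of untreated skin was analysed here. Genotype, mouse, section and library therefore cannot be told apart, no test between genotypes was possible, and every interval given is a 95% interval that covers counting error only.

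Elastic fibres give skin its recoil. Fibroblasts secrete fibrillin-1, which polymerises into microfibrils that carry MAGP-1 and MAGP-2, and tropoelastin is laid down on this scaffold and crosslinked by lysyl oxidases. Fibulin-5 binds tropoelastin and the crosslinking enzymes and is needed for normal elastic fibre assembly in mice, while fibulin-1 is found in elastic fibres and in basement membranes. In skin, thin microfibril bundles run upward to the dermal-epidermal junction, and thick elastic fibres lie in the reticular dermis. Microfibrils also bind latent complexes of transforming growth factor beta.

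In the mm10 (GRCm38.p6) genome the members lie apart, on 7 chromosomes. *Eln* (ENSMUSG00000029675) is at chr5:134702595-134747368, *Fbn1* (ENSMUSG00000027204) at chr2:125300594-125506485, and *Mfap2* (ENSMUSG00000060572) at chr4:141010424-141015976. *Mfap5* (ENSMUSG00000030116) is at chr6:122513584-122529290, and *Mfap4* (ENSMUSG00000042436) at chr11:61485431-61488708. *Fbln1* (ENSMUSG00000006369) is at chr15:85205949-85286294, and *Fbln5* (ENSMUSG00000021186) at chr12:101746565-101819119. RefSeq promoter sequence, from 250 bases before to 50 bases after a start, was at hand for 4 of the 7 members: *Fbn1*, *Fbln1*, *Fbln5* and *Mfap2*. The first listed promoters of *Fbn1*, *Mfap2* and *Fbln5* are shown. These 3 genes had their highest level in different depth bands of the S1pr2fl/fl section, each with an overlapping interval in another band, as described further on. *Fbln1*, highest in yet another band (3.1 to 4.1 spacings), is not shown. Capitals mark matches, on either strand, to the TATA box (TATAAA), the GC box (GGGCGG), the CCAAT box (CCAAT) or the AP-1 site (TGAGTCA).
Fbn1 promoter, chr2:125506389-125506688, minus strand: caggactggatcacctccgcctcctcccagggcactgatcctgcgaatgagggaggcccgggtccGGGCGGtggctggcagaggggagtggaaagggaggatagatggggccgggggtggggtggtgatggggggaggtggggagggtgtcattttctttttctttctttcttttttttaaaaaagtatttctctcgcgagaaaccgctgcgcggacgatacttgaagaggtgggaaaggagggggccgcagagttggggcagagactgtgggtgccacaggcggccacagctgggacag
Mfap2 promoter, chr4:141010431-141010730, plus strand: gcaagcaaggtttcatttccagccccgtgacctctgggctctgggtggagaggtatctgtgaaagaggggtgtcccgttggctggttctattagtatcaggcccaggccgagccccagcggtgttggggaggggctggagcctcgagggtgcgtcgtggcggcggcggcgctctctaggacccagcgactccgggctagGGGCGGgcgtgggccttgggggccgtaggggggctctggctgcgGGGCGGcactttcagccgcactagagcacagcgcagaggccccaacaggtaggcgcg
Fbln5 promoter, chr12:101819070-101819369, minus strand: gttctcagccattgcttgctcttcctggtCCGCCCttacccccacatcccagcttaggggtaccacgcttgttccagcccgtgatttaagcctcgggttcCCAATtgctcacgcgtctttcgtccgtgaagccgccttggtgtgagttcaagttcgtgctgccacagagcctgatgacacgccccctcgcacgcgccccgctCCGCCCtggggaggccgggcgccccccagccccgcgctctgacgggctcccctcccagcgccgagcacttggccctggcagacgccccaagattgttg
The *Fbn1* promoter held 1 GC box, the *Mfap2* promoter 2 GC boxes, and the *Fbln5* promoter 2 GC boxes and 1 CCAAT box. None of the 3 held the letters of the TATA box or the AP-1 site. Among all 32851 promoters of the table, 35.7% held a GC box, 37.4% a CCAAT box, 13.6% a TATA box and 5.20% an AP-1 site, so that a GC box is a common feature. GC content was 60.3% in the *Fbn1*, 68.0% in the *Mfap2* and 65.7% in the *Fbln5* promoter, against a median of 52.7% over all promoters. *Mfap2* and *Fbln5* each had a further listed promoter, not shown, with 0 GC boxes. That of *Mfap2* held 1 CCAAT box and 52.0% GC, and that of *Fbln5* held 0 CCAAT boxes and 48.7% GC. The first listed promoter of *Fbln1* held 0 GC boxes and 51.7% GC, and its second held 2 GC boxes and 64.0% GC.

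Unique molecular identifiers (UMIs, the tags of single captured molecules) were counted over 1203 spots of the S1pr2fl/fl section and 970 of the S1pr2fl/fl K14-Cre section, with 5291783 and 2845041 UMIs and medians of 3835 and 2342.5 per spot. The members gave 3639 of these UMIs in the S1pr2fl/fl section and 2589 in the S1pr2fl/fl K14-Cre section, and 67.9% and 59.8% of spots held at least 1. *S1pr2* itself gave 154 UMIs (29.1 CPM, counts per 1000000 UMIs) and 54 UMIs (19.0 CPM), over all cell types of each section. The surface layer was defined as the spots in which suprabasal keratinocyte genes took at least 2 times their share over the section, and depth as the distance of any other spot to it, in spot spacings. The layers differed between the sections: suprabasal keratinocyte genes reached 93849 CPM in the S1pr2fl/fl surface layer against 30682 CPM in the S1pr2fl/fl K14-Cre one. Skeletal muscle genes were at 1290 CPM in the band from 1.1 to 2.1 spacings of the S1pr2fl/fl section and at 25517 CPM in that band of the S1pr2fl/fl K14-Cre section. The same depth thus held different tissue in the 2 sections. In addition, 1226 olfactory, vomeronasal and taste type receptor genes, which skin hardly expresses, summed to 2715 CPM in the S1pr2fl/fl section and 7329 CPM in the S1pr2fl/fl K14-Cre section. Other definitions of depth and other scalings moved many of the values below, in part by a large amount, and the causes were not tested.

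**Figure D1:**
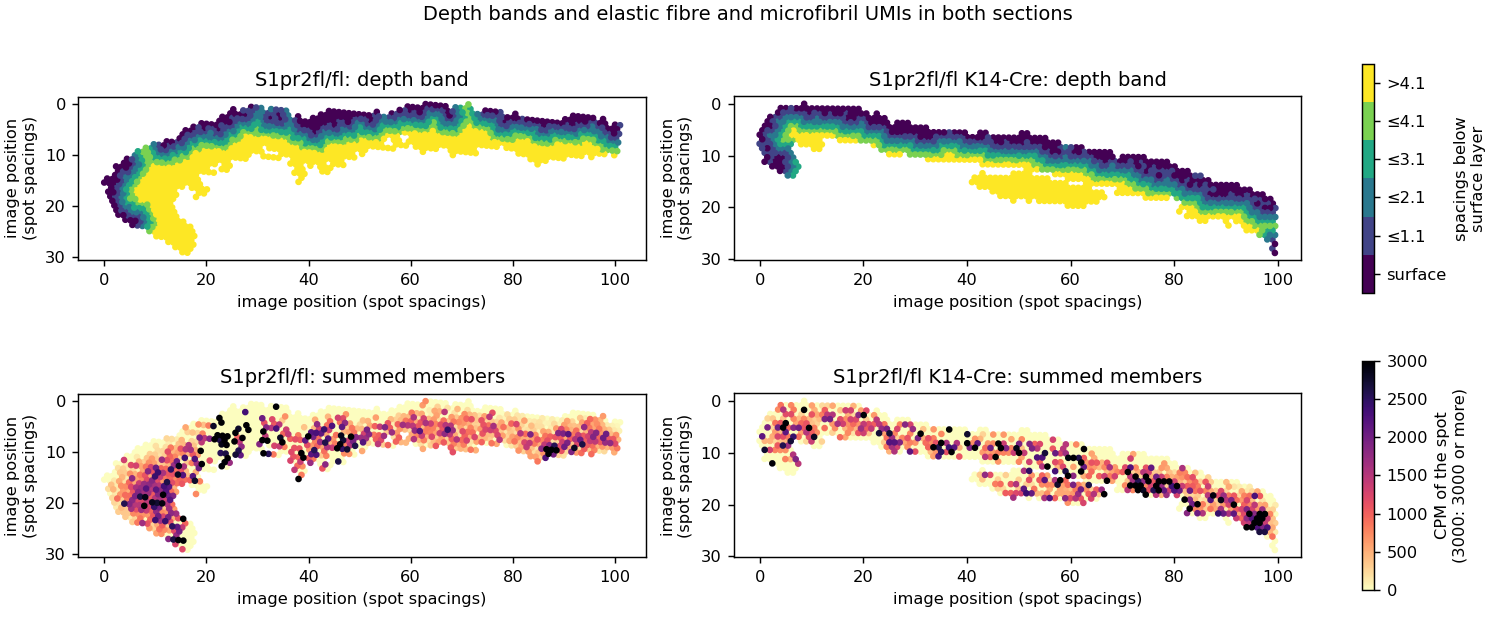
Maps of both sections, with each point a spot and both axes in spot spacings on the image. The upper panels colour the spots by depth band, from the surface layer to over 4.1 spacings; the lower panels colour them by the summed CPM of the 7 members, with 3000 CPM or more drawn as 3000. Few member UMIs lay along the surface, and spots with high values were scattered below it in both sections. A tongue of deep spots lies apart from most of the strip below the S1pr2fl/fl K14-Cre section.

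Summed over the 7 members, transcripts were sparse in the surface layer and several-fold more frequent below it in both sections. Surface spots were chosen by the keratinocyte share of the same UMIs, so a lower share of other genes there is in part built in. Dermal collagen and proteoglycan genes were lower there too, at 3210 CPM against 12496 CPM 1 to 2 spacings below in the S1pr2fl/fl section. Their S1pr2fl/fl K14-Cre values were 5898 and 23863 CPM. Per 1000 UMIs of these genes, members were no fewer at the surface: 40.2 against 36.1 (S1pr2fl/fl) and 49.3 against 38.0 (S1pr2fl/fl K14-Cre). The sum in the S1pr2fl/fl section was 129 CPM (104 to 159) in the surface layer, 340 CPM up to 1.1 spacings, 574 CPM from 1.1 to 2.1, 772 CPM from 2.1 to 3.1, 872 CPM from 3.1 to 4.1 and 1044 CPM (995 to 1094) over 4.1 spacings. The level thus increased at every step down to the deepest band. The S1pr2fl/fl K14-Cre sum was 291 CPM (248 to 339) in the surface layer and then 754, 1098, 1359, 1281 and 964 CPM. Here the highest band was 2.1 to 3.1 spacings, its interval overlapped that of the next band down, and the deepest band was lower than both. From the surface layer to the spots 1 to 2 spacings below it, the log2 ratio was 1.81 (1.49 to 2.14) in the S1pr2fl/fl section and 1.64 (1.40 to 1.89) in the S1pr2fl/fl K14-Cre section. From there to the deep spots, over 3.1 spacings, it was 1.14 (1.02 to 1.26) in the S1pr2fl/fl section and 0.24 (0.11 to 0.38) in the S1pr2fl/fl K14-Cre section. The last value is not firm in sign. It was -0.0048 when only spots with at least 1000 UMIs were used, each thinned to 1000. It was -0.043 with depth counted from the uppermost spots of each array column, and 0.92 without deep spots rich in muscle. Depth counted from the uppermost spots also took the S1pr2fl/fl value down to 0.24.

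**Figure D2:**
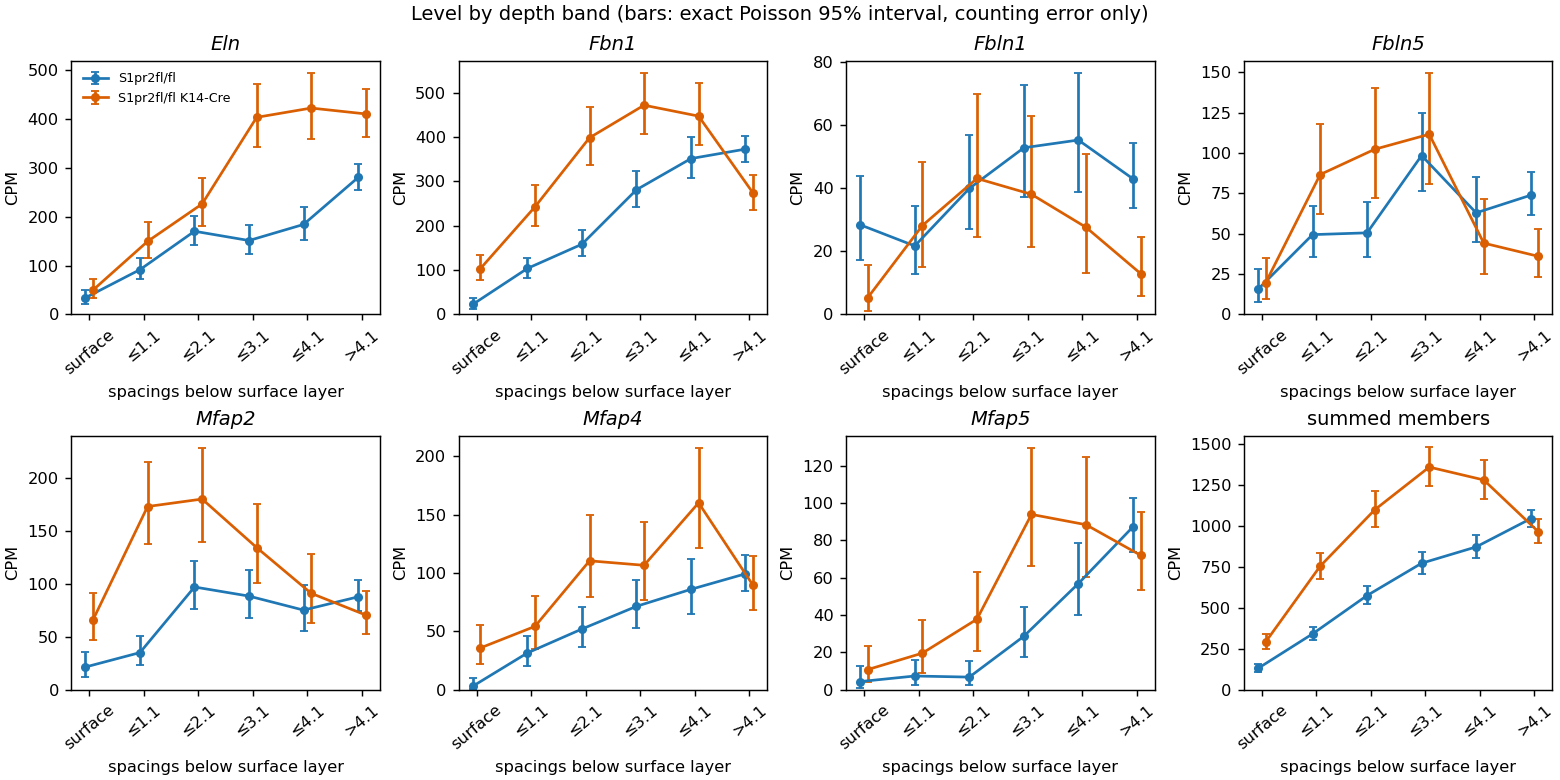
Level of each member and of their sum by depth band, in CPM from 0, against spacings below the surface layer; bars are exact Poisson 95% intervals for counting error. Blue is the S1pr2fl/fl and orange the S1pr2fl/fl K14-Cre section. The sum climbed from 129 to 1044 CPM with depth in the S1pr2fl/fl section and peaked at 1359 CPM from 2.1 to 3.1 spacings in the S1pr2fl/fl K14-Cre section. *Fbln1*, *Fbln5* and *Mfap2* turned down at depth in the latter. There, *Fbn1* and *Mfap4* also fell, from 447 and 160 CPM at 3.1 to 4.1 spacings to 274 and 89.2 CPM over 4.1.

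Read against all genes, the position below the surface was shared by most members. *Mfap5* had too few UMIs to be counted between the surface layer and the spots 1 to 2 spacings below it. Of the other 6 members, 5 were at least 2-fold higher below in the S1pr2fl/fl section, where 23.8% of 8940 genes were higher and 2.2% lower by as much. The exception was *Fbln1*, with a log2 ratio of 0.10 (-0.68 to 0.93). For the S1pr2fl/fl K14-Cre section 6 of 6 were at least 2-fold higher, against 19.9% of 9149 genes higher and 6.77% lower. The median log2 ratio of these members was 1.76 and 1.72, beside 0.46 and 0.23 over all genes. Between shallow and deep spots, 3 of 7 members were at least 2-fold higher in the deep spots of the S1pr2fl/fl section, where 12.9% of all genes were higher and 7.02% lower and the member median was 0.97 beside 0.02. Of the same 7 in the S1pr2fl/fl K14-Cre section, 2 of 7 were at least 2-fold higher, against 7.2% of all genes, and 2 of 7 were at least 2-fold lower, against 24.9%. The member median was 0.093 there, beside -0.38 over all genes.

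*Eln*, the core protein of the fibre, was low at the surface and high at depth in both sections. Its level in the S1pr2fl/fl section was 34.1 CPM in the surface layer, 91.6, 170, 151 and 184 CPM in the next 4 bands, and 280 CPM (255 to 307) over 4.1 spacings. Its S1pr2fl/fl K14-Cre level was 49.95 CPM in the surface layer, then 149, 226, 403 and 422 CPM, and 410 CPM (364 to 461) over 4.1 spacings. The deepest band stood above all others in the S1pr2fl/fl section, whereas the 3 deepest bands of the S1pr2fl/fl K14-Cre section had overlapping intervals. The deep over shallow log2 ratio of *Eln* was 0.97 (0.74 to 1.21) in the S1pr2fl/fl and 1.17 (0.91 to 1.45) in the S1pr2fl/fl K14-Cre section. Both stayed above 0 under every alternative run, but with depth from the uppermost spots they were 0.49 and 0.23, and the S1pr2fl/fl K14-Cre value was 1.84 with TMM and 2.11 with a surface layer at 4 times the keratinocyte share. Per 1000 UMIs of dermal collagen and proteoglycan genes, *Eln* gave 14.5 UMIs in the deepest S1pr2fl/fl band and 26.1 in the deepest S1pr2fl/fl K14-Cre band.

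*Fbn1*, the fibrillin that forms the microfibril backbone, gave 1263 UMIs in the S1pr2fl/fl section and 856 in the S1pr2fl/fl K14-Cre section. The S1pr2fl/fl level was 22.7 CPM in the surface layer and then 104, 158, 281, 351 and 373 CPM, increasing with each band. The last 2 bands had overlapping intervals. The S1pr2fl/fl K14-Cre level was 103 CPM in the surface layer and then 243, 398, 472, 447 and 274 CPM (236 to 315 in the deepest band). *Fbn1* was thus at a higher CPM down to 4.1 spacings and at a lower CPM over 4.1 spacings in that section. Its deep over shallow log2 ratio was 1.50 (1.28 to 1.73) in the S1pr2fl/fl section, while that of the S1pr2fl/fl K14-Cre section, 0.09 (-0.14 to 0.33), could not be told from 0. These values depended on the setting: the former was 0.31 with depth from the uppermost spots, and the latter was 0.76 with TMM, 0.65 at 4 times the keratinocyte share, 0.88 without muscle-rich deep spots and -0.10 after thinning.

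The glycoproteins of the microfibril, *Mfap2* and *Mfap5*, differed in depth. *Mfap2* was highest from 1.1 to 2.1 spacings in both sections, at 97.1 CPM in the S1pr2fl/fl and 180 CPM in the S1pr2fl/fl K14-Cre section, though neighbouring bands had overlapping intervals. In the band up to 1.1 spacings it was at 35.0 CPM (23.4 to 50.2) against 173 CPM (137 to 216), a 4.96-fold difference (3.20 to 7.87), and over 4.1 spacings at 87.7 against 70.5 CPM, with overlapping intervals. The *Mfap2* difference was largest near the surface. Its deep over shallow log2 ratio was 0.38 (0.03 to 0.74) in the S1pr2fl/fl section, where it was -0.25 with depth from the uppermost spots, and -1.19 (-1.59 to -0.79) in the S1pr2fl/fl K14-Cre section.

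*Mfap5* was a deep transcript. It gave in the S1pr2fl/fl section 3, 6 and 5 UMIs in the first 3 bands, 20 from 2.1 to 3.1 spacings, 37 from 3.1 to 4.1 and 144 (87.1 CPM, 73.5 to 103) over 4.1 spacings. It gave in the S1pr2fl/fl K14-Cre section 6, 9, 14, 37, 32 and 50 UMIs, which is 93.8 CPM at 2.1 to 3.1 spacings and 72.0 CPM in the deepest band. The deep over shallow log2 ratio was 3.50 (2.62 to 4.53) in the S1pr2fl/fl and 1.49 (0.81 to 2.23) in the S1pr2fl/fl K14-Cre section. It was 1.36 and 1.99 at 4 times the keratinocyte share, and 0.84 and 0.39 with depth from the uppermost spots. In the surface layer of both sections, from 1.1 to 2.1 spacings in the S1pr2fl/fl section and up to 1.1 spacings in the S1pr2fl/fl K14-Cre section, the UMIs of *Mfap5* were within the range of 95% of receptor genes, and are there not above background.

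*Mfap4*, whose product binds microfibrils and tropoelastin, followed *Fbn1*. Its levels from the surface down were 2.84, 31.3, 51.9, 71.3, 85.9 and 99.2 CPM in the S1pr2fl/fl section. Those of the S1pr2fl/fl K14-Cre section were 35.7, 54.1, 110, 107, 160 and 89.2 CPM. The 2 surface UMIs of the S1pr2fl/fl section were at background. The deep over shallow log2 ratio was 1.22 (0.81 to 1.64) in the S1pr2fl/fl section, where it was 0.013 with depth from the uppermost spots, and 0.52 (0.07 to 0.98) in the S1pr2fl/fl K14-Cre section, the latter without a firm sign, at -0.038 after thinning and -0.010 with depth from the uppermost spots.

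Both fibulins were lower over 4.1 spacings in the S1pr2fl/fl K14-Cre section than in the S1pr2fl/fl section. *Fbln5* was at 15.6, 49.4, 50.5, 98.4, 62.9 and 73.8 CPM from the surface down in the S1pr2fl/fl section. Its levels in the S1pr2fl/fl K14-Cre section were 19.6, 86.6, 102, 112, 44.2 and 36.0 CPM, the first from 11 UMIs, which were at background. Both profiles were highest from 2.1 to 3.1 spacings, with the interval of at least 1 other band overlapping, and over 4.1 spacings the intervals of the sections did not overlap. *Fbln1* was at 28.4, 21.7, 39.9, 52.8, 55.2 and 43.0 CPM in the S1pr2fl/fl section. Its S1pr2fl/fl K14-Cre levels were 5.35, 28.2, 43.1, 38.0, 27.6 and 13.0 CPM, from only 66 UMIs in all. *Fbln1* was the only member of the 7 whose lowest band in the S1pr2fl/fl section was not the surface layer, which held 20 of its UMIs, although the intervals of its first 3 bands overlapped. Its 3 UMIs in the S1pr2fl/fl K14-Cre surface layer were at background, since 64.8% of receptor genes had at least as many.

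Over all spots, the S1pr2fl/fl K14-Cre section had more member transcripts per total UMIs than the S1pr2fl/fl section, by about as much as the median gene. The members summed to 688 CPM (666 to 710) in the S1pr2fl/fl section and 910 CPM (875 to 946) in the S1pr2fl/fl K14-Cre section, a log2 ratio of 0.40 (0.33 to 0.48), beside a median of 0.35 over 16828 genes. The TMM factor of edgeR shifted all these log2 ratios by -0.37 and left 0.031 for the sum. *Eln* was at 173 CPM in the S1pr2fl/fl and 273 CPM in the S1pr2fl/fl K14-Cre section, *Mfap2* at 70.5 and 112 CPM, and *Mfap4* at 63.7 and 87.2 CPM, in the same order. *Fbn1* was at 239 and 301 CPM and *Mfap5* at 40.6 and 52.0 CPM, and both log2 ratios (0.33 and 0.36) turned just below 0 after TMM. *Fbln5* did not differ beyond counting error, at 60.8 and 61.2 CPM, and had a log2 ratio of -0.37 after TMM. *Fbln1* alone of the 7 was lower in the S1pr2fl/fl K14-Cre section, at 23.2 CPM (17.9 to 29.5) against 40.1 CPM (34.9 to 45.8), a log2 ratio of -0.79 (-1.21 to -0.38). None of the 7 members reached 2-fold in either direction, where 26.2% of all genes were at least 2-fold higher and 4.73% at least 2-fold lower. The all-gene median and shares include genes near background, which was higher in the S1pr2fl/fl K14-Cre section (7329 against 2715 CPM of receptor genes). The part of background in them was not tested.

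The difference between sections was larger near the surface than at depth, along a gradient that all genes shared in part. By band, the summed log2 ratio was 1.17 in the surface layer, 1.15 up to 1.1 spacings, 0.93 from 1.1 to 2.1, 0.82 from 2.1 to 3.1, 0.56 from 3.1 to 4.1 and -0.11 (-0.24 to 0.02) over 4.1 spacings. The all-gene medians of the same bands were 0.23, 0.13, -0.04, -0.14, -0.22 and -0.30. Receptor gene background was also most unequal near the surface, at 1389 CPM in the S1pr2fl/fl and 9877 CPM in the S1pr2fl/fl K14-Cre surface layer. Over 4.1 spacings it was at 2718 and 3271 CPM. The part of this background in the differences by band was not tested. In spots 1 to 2 spacings below the surface layer the members summed to 451 CPM (419 to 486) in the S1pr2fl/fl section and 907 CPM (844 to 974) in the S1pr2fl/fl K14-Cre section. The log2 ratio was 1.01 (0.86 to 1.16) beside an all-gene median of 0.23, and 0.95 with the mean receptor gene subtracted. Suprabasal keratinocyte genes were at 38329 CPM in these S1pr2fl/fl spots and at 7431 CPM in the S1pr2fl/fl K14-Cre ones. The surface cutoff followed each section's own keratinocyte share, and these spots did not hold like tissue. *Mfap5* (6.95 and 27.6 CPM), *Mfap2* (64.5 and 176 CPM) and *Fbn1* (130 and 312 CPM) were at least 2-fold higher in the S1pr2fl/fl K14-Cre section, 3 of 7 members, where 20.7% of 10795 genes were. None of the 7 was at least 2-fold lower, where 8.87% of genes were. The *Mfap5* ratio rests on 11 and 23 UMIs. Its 5 UMIs from 1.1 to 2.1 spacings in the S1pr2fl/fl section were at background. So were its 9 UMIs up to 1.1 spacings in the S1pr2fl/fl K14-Cre section. Receptor genes summed to 2686 and 10858 CPM in the pooled spots. With the mean receptor gene subtracted the *Mfap5* log2 ratio was 1.98, against 1.99 without. These 2-fold differences were not firm: with TMM the log2 ratio of *Fbn1* was 0.64 and that of *Mfap2* 0.83, and *Mfap5* was at 0.045 at 4 times the keratinocyte share. With depth from the uppermost spots none of the 3 reached 2-fold, at 0.37 for *Fbn1*, 0.26 for *Mfap2* and 0.63 for *Mfap5*. *Mfap4* (41.1 and 79.2 CPM) and *Fbln5* (49.9 and 93.6 CPM) had log2 ratios of 0.95 (0.43 to 1.46) and 0.91 (0.44 to 1.38). *Eln* had the smallest of the ratios whose interval lay above 0, at 0.51 (0.20 to 0.82) from 129 and 184 CPM, and was -0.12 after TMM. For *Fbln1*, 30.3 and 34.8 CPM could not be told apart, and the log2 ratio of 0.20 was below 0 with TMM (-0.43) and at 4 times the share (-0.96). The size of the summed difference depended on how depth and scale were set: it was 0.38 after TMM, 0.67 with a surface layer of 4 times the keratinocyte share, and 0.46 with depth from the uppermost spots.

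In the surface layer itself, *Fbn1* (22.7 and 103 CPM) and *Mfap2* (21.3 and 66.0 CPM) were higher in the S1pr2fl/fl K14-Cre section by log2 ratios of 2.19 (1.37 to 3.09) and 1.63 (0.73 to 2.60), 2 of the 3 members with enough UMIs there, where 22.4% of 6368 genes were at least 2-fold higher. The dermal list was at 3210 CPM in the S1pr2fl/fl surface layer and 5898 CPM in the S1pr2fl/fl K14-Cre surface layer, and its part in these differences was not tested.

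Pooled over all deep spots, the sum was near equal and the members diverged. Over 3.1 spacings they summed to 995 CPM in the S1pr2fl/fl and 1073 CPM in the S1pr2fl/fl K14-Cre section, a log2 ratio of 0.11 (0.00 to 0.21) beside an all-gene median of -0.25. *Eln* was at 253 and 414 CPM, 0.71 (0.53 to 0.89), the only member of the 7 whose interval lay above 0. *Fbln1*, at 46.4 and 18.0 CPM, was lower by a log2 ratio of -1.37 (-2.16 to -0.66), and *Fbln5*, at 70.7 and 38.8 CPM, by -0.87 (-1.40 to -0.37). *Fbn1*, *Mfap2*, *Mfap4* and *Mfap5* had log2 ratios from -0.14 to 0.25 with intervals that held 0. The pool joins unlike bands. The log2 ratio of *Fbn1* was 0.35 (0.05 to 0.64) from 3.1 to 4.1 spacings and -0.45 (-0.69 to -0.21) over 4.1. That of *Mfap4* was 0.90 (0.34 to 1.45) and -0.15 (-0.60 to 0.28) in these bands, and that of the sum 0.56 and -0.11. *Fbln1* was the 1 member of 7 at least 2-fold lower, where 16.9% of 11188 genes were, and no member was at least 2-fold higher, where 5.05% of genes were. TMM, thinning and the other definitions of depth were not applied to these differences over 3.1 spacings.

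**Figure D3:**
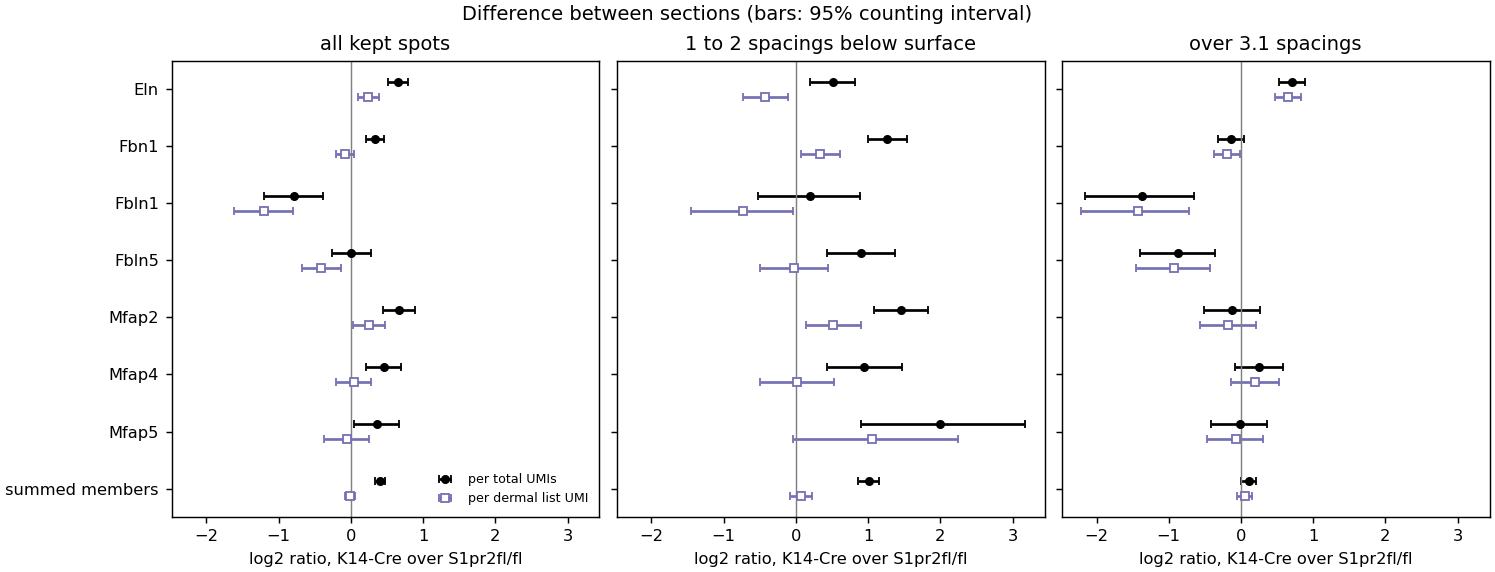
Log2 ratio of the S1pr2fl/fl K14-Cre over the S1pr2fl/fl section for each member and their sum, over all spots, 1 to 2 spacings below the surface layer and over 3.1 spacings; bars are 95% counting intervals. Filled circles divide by all UMIs and open squares by the UMIs of 10 dermal collagen and proteoglycan genes. The summed ratio of 1.01 in the middle panel was 0.07 by the latter scale, while *Eln* (0.71 and 0.65) and *Fbln1* (-1.37 and -1.43) kept theirs at depth.

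The dermal collagen and proteoglycan genes (*Col1a1*, *Col3a1*, *Dcn*, *Lum* and 6 others) moved in the same way as the sum of the members. They were at 12496 CPM in the S1pr2fl/fl and 23863 CPM in the S1pr2fl/fl K14-Cre section at 1 to 2 spacings, and at 15179 and 20231 CPM over all spots. Fewer or more fibroblasts in a spot and less or more RNA per fibroblast cannot be told apart in such counts. Set against this list, the members summed to 45.3 UMIs per 1000 dermal UMIs in the S1pr2fl/fl section and 45.0 in the S1pr2fl/fl K14-Cre section, a log2 ratio of -0.01 (-0.08 to 0.06). At 1 to 2 spacings the ratio was 0.07 (-0.08 to 0.22), and over 3.1 spacings 0.05 (-0.05 to 0.15). The makeup of the sum still differed. *Fbln1* was lower in the S1pr2fl/fl K14-Cre section over all spots, at 1.15 against 2.64 UMIs per 1000, a log2 ratio of -1.20 (-1.62 to -0.80), and *Fbln5* at 3.02 against 4.01, -0.41 (-0.68 to -0.14). *Eln* was lower at 1 to 2 spacings, -0.42 (-0.74 to -0.11), and higher over 3.1 spacings, 0.65 (0.47 to 0.84). *Mfap2* (0.52, 0.14 to 0.90) and *Fbn1* (0.33, 0.06 to 0.61) were higher at 1 to 2 spacings.

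**Figure D4:**
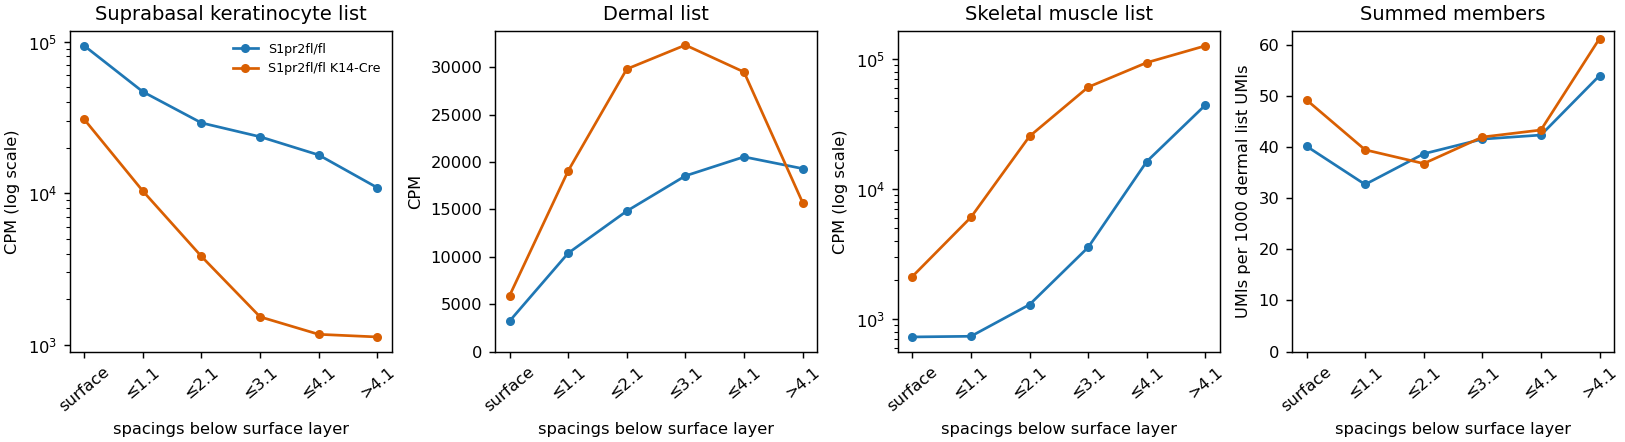
Summed level by depth band of the suprabasal keratinocyte, dermal and skeletal muscle gene lists, in CPM (log scale for the keratinocyte and muscle panels), and of the 7 members in UMIs per 1000 dermal list UMIs; blue is the S1pr2fl/fl and orange the S1pr2fl/fl K14-Cre section. Dermal list levels were higher in the S1pr2fl/fl K14-Cre section down to 4.1 spacings, and muscle levels in every band, while members per dermal UMI ran close together from 1.1 to 4.1 spacings.

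Each section was also divided along its length into 4 segments, which are parts of 1 section and not replicates. At 1 to 2 spacings, the summed members ranged from 344 to 515 CPM over the S1pr2fl/fl segments and from 744 to 1017 CPM over the S1pr2fl/fl K14-Cre segments. These ranges did not overlap, nor did those of *Fbn1* (64.4 to 162 against 220 to 354 CPM) and *Fbln5* (21.5 to 59.4 against 78.7 to 157 CPM). The other 5 members had overlapping ranges there. The range ends that face each other rest on 72 (S1pr2fl/fl) and 21 (S1pr2fl/fl K14-Cre) UMIs for *Fbn1*. For *Fbln5* they rest on 41 and 19 UMIs. The lowest S1pr2fl/fl value came from only 6 UMIs of *Fbn1* and 2 of *Fbln5*. How many of all genes had ranges without overlap was not computed, so the lack of overlap is not shown to be particular to these members. Over 3.1 spacings the ranges of every member overlapped, those of *Eln* (223 to 287 against 187 to 533 CPM) and *Fbln1* (22.5 to 67.0 against 6.90 to 41.1 CPM) included. The deep sum ran from 878 to 1210 CPM over the S1pr2fl/fl segments and from 562 to 1677 CPM over the S1pr2fl/fl K14-Cre segments, a wider range.

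The deep spots held much skeletal muscle, at 36445 CPM of its 7 genes in the S1pr2fl/fl and 115734 CPM in the S1pr2fl/fl K14-Cre section, and were therefore split by muscle content, a division chosen after the values were seen. Deep spots with at least 2 times the section's muscle share had a summed member level of 718 CPM in the S1pr2fl/fl section, against 1199 CPM in the other deep spots. The S1pr2fl/fl K14-Cre values were 669 and 1718 CPM. The sum per total UMIs was thus lower where muscle was rich, with log2 ratios of -0.74 (-0.87 to -0.61) and -1.36 (-1.54 to -1.19). Spots were chosen by the muscle share of the same UMIs, so a lower share of other genes is in part built in. The dermal list was lower there too, at 12455 against 24962 CPM in the S1pr2fl/fl and 11317 against 35045 CPM in the S1pr2fl/fl K14-Cre section. These muscle-split log2 ratios were not set per dermal UMI. The division follows each section's own share, so the other deep spots still differed, with muscle genes at 8200 CPM in the S1pr2fl/fl and 56678 CPM in the S1pr2fl/fl K14-Cre section and the dermal list at 24962 and 35045 CPM. *Eln* in the other deep spots was at 298 CPM (270 to 329) in the S1pr2fl/fl section and 656 CPM (580 to 740) in the S1pr2fl/fl K14-Cre section, and *Fbn1* at 467 and 575 CPM. *Fbln1* (55.0 and 17.2 CPM) and *Fbln5* (91.2 and 39.3 CPM) were lower in the S1pr2fl/fl K14-Cre section there, from 7 and 16 UMIs in it. Levels in muscle-rich and other deep spots could not be told apart for *Mfap4* and *Mfap5* in the S1pr2fl/fl section, nor for *Fbln1* and *Fbln5* in the S1pr2fl/fl K14-Cre section.

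Among themselves, the members had like profiles in part. Over the 12 depth bands of both sections, which share libraries and depth, *Fbn1* and *Mfap4* had the most similar profiles (Pearson r of log2 CPM 0.979), followed by *Eln* and *Mfap4* (0.904) and *Eln* and *Fbn1* (0.892). *Fbln1* was least like the rest, with r from 0.27 to 0.68. The 5 genes outside the family with profiles most like the sum, among 7573 genes compared, were *Pcolce* (0.988), *Ctsz* (0.987), *Rcn3* (0.984), *C1qc* (0.984) and *C1qa* (0.984). *Pcolce* encodes an enhancer of procollagen C-proteinase, *Ctsz* a lysosomal cathepsin, *Rcn3* a protein of the endoplasmic reticulum, and *C1qa* and *C1qc* chains of complement C1q made by macrophages.

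Genes that crosslink, assemble or break down elastic fibres were read over all spots for comparison, against 26.2% of all genes 2-fold higher and a median log2 ratio of 0.35. These all-gene values include genes near background. Of the 5 lysyl oxidases, 1 was at least 2-fold higher in the S1pr2fl/fl K14-Cre section and 0 lower, with a median of 0.15. The higher one was *Loxl3*, at 6.61 and 20.7 CPM. *Loxl1*, an oxidase that acts on tropoelastin, had the most UMIs and was at 208 and 231 CPM. Of 16 assembly and microfibril partners with enough UMIs, 5 were at least 2-fold higher and 1 lower, with a median of 0.34. *Fbln2*, a fibulin of elastic fibres and basement membranes with the most UMIs of that list, was at 320 and 411 CPM. The higher ones with at least 100 UMIs were *Emilin1*, a glycoprotein at the elastin and microfibril interface (41.6 and 93.8 CPM), *Fbn2*, the second fibrillin (11.7 and 29.9 CPM), and *Fbln7* (4.91 and 31.3 CPM). *Mfap3l* was lower, at 41.2 and 20.03 CPM. The other 2 higher partners were *Emilin3* (5.67 and 23.9 CPM) and *Thsd4* (2.65 and 15.8 CPM). *Thsd4* had 14 UMIs in the S1pr2fl/fl section, under the 95th percentile of receptor genes there (22 UMIs), and so was at background in it. Except for *Emilin1*, with 220 and 267 UMIs, these higher genes had few UMIs, and the part of the higher receptor gene background of that section in their ratios was not tested.

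Of 7 genes for latent transforming growth factor beta binding proteins and the growth factors, 1 was at least 2-fold higher in the S1pr2fl/fl K14-Cre section: *Tgfb3*, at 44.8 and 92.8 CPM, while *Tgfb1* was at 143 and 171 CPM. The median was 0.25. Of 12 proteases and inhibitors of elastin breakdown, 3 were at least 2-fold higher and 0 lower, with a median of 0.13. *Timp3*, a matrix-bound metalloproteinase inhibitor, was at 82.0 and 190 CPM, *Mmp12*, the macrophage elastase, at 4.72 and 18.3 CPM, and *Elane*, the neutrophil elastase, at 3.59 and 16.2 CPM. *Mmp12* rests on 25 and 52 UMIs and *Elane* on 19 and 46. The 95th percentile of receptor genes over all spots was 22 and 34 UMIs, so *Elane* was at background in the S1pr2fl/fl section. The part of the receptor gene background in the *Mmp12* and *Elane* ratios was not tested. *Ctsl*, a cathepsin with the most UMIs of that list, was at 2004 and 1874 CPM. By their counting intervals, 7 of the 12 were higher and 4 lower. The share of all genes called by this rule was not computed. With many UMIs the rule calls small log2 ratios, such as -0.097 for *Ctsl*. Besides *Ctsl*, the lower genes were the more clearly lower *Mmp2* (405 and 259 CPM), *Mmp14* (360 and 217 CPM) and *Ctsk* (746 and 448 CPM). *Loxl3*, *Emilin3*, *Thsd4*, *Mmp2*, *Mmp14*, *Ctsk*, *Mmp12* and *Elane* were named after their values were seen. In the S1pr2fl/fl section the median deep over shallow log2 ratio was above 0 in all 4 lists, from 0.46 for breakdown to 1.13 for crosslinking. In the S1pr2fl/fl K14-Cre section it was 0.18 for crosslinking and between -0.23 and -0.33 in the other 3 lists, beside -0.38 over all genes.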

How the data were processed

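The files deposited by the authors hold UMI counts of each gene in each tissue spot, not normalized, and the array position of every spot. The count headers name Space Ranger 3.0.0, the submitters' processing notes name mm10, and the methods name Partek Flow. The probe set is not given in the sources used here. How many probes read each gene is therefore unknown, and levels are compared within a gene, not between genes. The RT-qPCR, flow cytometry, histology and ELISA of the study were not analysed here.

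A spot was kept if it had at least 50 UMIs and lay in a connected group of 20 or more, which left out 79 S1pr2fl/fl and 11 S1pr2fl/fl K14-Cre spots. The sections shared 357 spot barcodes, which mark array positions and not cells. UMIs were summed over the spots of a region and divided by all UMIs of that region (CPM). Intervals are exact Poisson for CPM and exact conditional binomial for ratios. Called genes are those at 2-fold or more, among genes with at least 30 UMIs over both sides, and the TMM and CPM ratios carry no test. Profiles were compared by Pearson correlation of log2(CPM + 10) over 12 bands, among genes with at least 200 UMIs. A gene was at background where its UMIs were at or under the 95th percentile of the 1226 receptor genes in that region. Members, lists and the 4 segments were chosen with earlier results of these data known. Besides the members, the text names, in 4 lists of related genes, those with at least 100 UMIs and a ratio of at least 2-fold, the gene with the most UMIs in each list, the 5 genes most like the sum and the 3 most like each member. The alternatives were TMM (edgeR 4.0.16 in R 4.3.3), a minimum of 500 UMIs, all spots under tissue, the mean of each spot's CPM, thinning to 1000 UMIs, subtraction of the mean receptor gene, scaling to the dermal list, a surface layer at 4 times the share, and depth from the 2 uppermost spots of each array column. Thinning was by random draw and left out spots with fewer than 1000 UMIs. Leaving out detached spots, muscle-rich deep spots or the leftmost segment was added after the data were seen. Python 3.11.15 with numpy 2.4.6, scipy 1.17.1 and pandas 2.3.3 was used, and the scripts were tested on simulated data.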

Additional observations from a re-analysis of the deposited data

Results flagged for a closer look

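For 3 members the deep over shallow ratio had opposite signs in the 2 sections, with intervals on opposite sides of 0. *Fbln1* had a log2 ratio of 0.61 in the S1pr2fl/fl section and -0.95 in the S1pr2fl/fl K14-Cre section, *Fbln5* 0.50 and -1.27, and *Mfap2* 0.38 and -1.19. With 1 section per genotype, the difference was not tested. Over all genes the median was 0.02 in the S1pr2fl/fl section and -0.38 in the S1pr2fl/fl K14-Cre section. How many of all genes had opposite signs by this rule was not computed, so the pattern is not shown to be particular to these members. TMM shifted the S1pr2fl/fl K14-Cre log2 ratios by 0.66. With the surface layer at 4 times the keratinocyte share, the S1pr2fl/fl K14-Cre values of *Fbln1* and *Fbln5* were 0.34 and 0.027, and with depth from the uppermost spots the S1pr2fl/fl values of *Fbln5* and *Mfap2* were both -0.25.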

How the results depend on the processing

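Of 53 recomputed values for the summed members, 31 stayed within their counting interval, 19 moved out of it and 3 changed sign. For single members, 19 values whose interval had left out 0 changed sign, and 14 whose interval had held 0 did, among them *Fbln1* below the surface layer of the S1pr2fl/fl section (0.10, and -1.15 after thinning). A minimum of 500 UMIs, all spots under tissue and receptor background subtraction moved none of the values of single members beyond it. The summed log2 difference between sections over all spots, 0.40, was 0.031 with TMM, 0.082 as a mean of spot CPM, 0.24 after thinning and -0.01 per dermal UMI. The difference at 1 to 2 spacings, 1.01, was 0.38 with TMM, 1.18 after thinning, 0.67 with the surface layer at 4 times the share, 0.46 with depth from the uppermost spots and 0.074 per dermal UMI. Below the surface over the surface layer, the S1pr2fl/fl value of 1.81 was 1.33 with TMM and 1.37 at 4 times the share, and the S1pr2fl/fl K14-Cre value of 1.64 was 1.93 at 4 times the share and 1.04 from the uppermost spots. Deep over shallow, the S1pr2fl/fl value of 1.14 was 0.93 at 4 times the share, 0.24 from the uppermost spots and 1.41 without muscle-rich deep spots. The S1pr2fl/fl K14-Cre value of 0.24 was 0.91 with TMM, 0.073 as a mean of spot CPM, -0.0048 after thinning, 0.82 at 4 times the share, -0.043 from the uppermost spots and 0.92 without muscle-rich deep spots. The 19 values were these. Over all spots, *Fbn1* was -0.039 with TMM and -0.080 per dermal UMI, *Mfap4* -0.15 as a mean of spot CPM, and *Mfap5* -0.016 with TMM, -0.15 as a mean of spot CPM, -0.48 after thinning and -0.058 per dermal UMI. At 1 to 2 spacings, *Eln* was -0.12 with TMM and -0.42 per dermal UMI, and *Fbln5* -0.17 at 4 times the share and -0.027 per dermal UMI. Below the surface layer, *Mfap2* of the S1pr2fl/fl K14-Cre section was -0.024 from the uppermost spots. Deep over shallow in the S1pr2fl/fl section, *Fbln5* was -0.016 at 4 times the share and -0.25 from the uppermost spots, where *Mfap2* was also -0.25. In the S1pr2fl/fl K14-Cre section, *Fbln1* was 0.34 and *Fbln5* 0.027 at 4 times the share, and *Mfap4* was -0.038 after thinning and -0.010 from the uppermost spots. The causes were not tested. After the filter on spots each section was 1 connected group, so leaving out detached groups changed nothing. Alternatives that left a member with 0 UMIs on a side gave no ratio. No paired analysis was possible because each genotype had 1 section. All members but *Eln* and *Fbn1* had bands below the surface layer with fewer than 30 UMIs, where the intervals are wide.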

Other observations

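Single members had other genes closest to them in profile over the 12 bands of both sections. These likenesses are descriptions over points that share 2 libraries, among 7573 genes compared. *Eln* was closest to *Anxa6*, which encodes an annexin (r = 0.984), *Mpc2*, a subunit of the mitochondrial pyruvate carrier (0.976), and *Gnas* (0.973). *Fbn1* was closest to *Ctsz* (0.991), *Emp1* (0.987) and *Slc27a1* (0.985), and *Mfap4* to *Fbn1* (0.979), *Dennd4b* (0.978) and *Emp1* (0.977). *Mfap5* was closest to *Vamp5* (0.983), to *Myh1*, a fast skeletal muscle myosin (0.982), and to *Hspb7*, a heat shock protein of muscle (0.982). *Mfap2* was closest to *Ccnd2* (0.9752), *Adig*, which encodes the fat cell protein adipogenin (0.964), and *Gstz1* (0.954). The nearest genes of the fibulins were *Scfd1* (0.958), *Anxa5* (0.953) and *Tmem219* (0.953) for *Fbln5*, and *Wdr37* (0.928), *Il10rb* (0.921) and *Nr1h2* (0.919) for *Fbln1*.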
